A study of Mus musculus with 18 samples.

Results

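Cholesterol synthesis and its regulation were followed through Hmgcs1, Idi1, Sqle, Lss, Cyp51, Dhcr7, Insig1 and Srebf2. The 8 genes were taken as a list of symbols, drawn up with earlier results of these data known, with 1 row kept for each symbol. The RNA-seq files hold 52093 symbols. Of the 8 genes, 7 have a row in the files, each with a single row, and Hmgcs1, which makes the precursor of mevalonate, was not analysed here. None of the 7 is a gene of LDL uptake itself.

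RNA was sequenced from 18 samples of male C57BL/6 wild type mice that had eaten a high-fat diet (HFD) during 12 weeks, with 6 samples for each of 3 tissues. Inguinal (iWAT) and epididymal (eWAT) white fat was digested with collagenase, and the floating layer of mature adipocytes was used. Brown adipose tissue (BAT) was frozen whole, so its RNA comes from every cell in the tissue, although 1 label calls it adipocytes. A treatment field that names regular chow for all samples disagrees with their titles and protocol, and the samples were taken as HFD. The labels give no age and do not say whether samples with the same number come from the same mouse, and p-values measure the spread between these samples.

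Each sample had 26768529 to 30166441 reads on rows for iWAT adipocytes, 24655056 to 37438994 for eWAT adipocytes and 27402247 to 42518483 for BAT. Levels are given as RPKM, reads scaled to transcript length and to the sample's total, and fold changes were fitted to the read counts with edgeR (quasi-likelihood test, TMM scaling). This choice of scale matters for BAT, where the 10 largest rows took 43.6% to 54.3% of the reads, against 14.1% to 20.5% in iWAT and 9.94% to 13.01% in eWAT adipocytes. Taken over all genes, the median log2 fold change against BAT was 0.01 for iWAT and -0.02 for eWAT adipocytes with TMM, 0.87 and 0.89 on counts without TMM, and 0.54 and 0.48 on log2(RPKM + 0.1). A lower RPKM in BAT was therefore not always a lower level in the test. Adipocyte markers were present in each tissue, and the 5 brown adipocyte markers summed to 3569 RPKM in BAT against 38.6 in iWAT and 9.27 in eWAT adipocytes. The sum of the 6 macrophage markers ran from 812 to 1223 RPKM in eWAT adipocytes, from 163 to 311 in those of iWAT and from 5.63 to 11.1 in BAT, and none of them was at 0 in any tissue. All 6 were higher in eWAT than in iWAT adipocytes by the same test, while all 5 adipocyte and all 4 endothelial markers were higher in iWAT adipocytes. Endothelial markers summed to 99.5 to 280 RPKM in iWAT adipocytes, 33.4 to 71.2 in those of eWAT and 68.7 to 99.6 in BAT. Fibroblast markers gave 462 to 626, 90.7 to 218 and 25.3 to 40.8 RPKM, and skeletal muscle markers 3.77 to 15.9, 1.14 to 4.83 and 1.18 to 91.1 RPKM, in the same order. Most of the fibroblast sum in both white depots was Dpt, with means of 476 RPKM in iWAT and 85.9 RPKM in eWAT adipocytes. Of the 4 fibroblast markers, 1 was higher in iWAT than in eWAT adipocytes by the test and none was lower. Their median log2 fold change was -0.09. In such mixtures, fewer cells of a type and less RNA per cell cannot be told apart, and the part that the cell mixture has in the results below was not tested.

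Cells build cholesterol from acetyl-CoA through mevalonate, squalene and lanosterol. SREBP-2, the protein of Srebf2, is held in the endoplasmic reticulum by INSIG proteins when sterols are plentiful; when sterols fall, it is cut and switches on the genes of the pathway, including Insig1. Fat stores much of the body's free cholesterol around its lipid droplets, and adipocytes make comparatively little of it themselves.

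Srebf2 was highest in eWAT adipocytes and lowest in BAT. Its row (mm9, chromosome 15, 81977634 to 82035807, plus strand, 18 exons) gave 12.7 to 18.2 RPKM in eWAT adipocytes, with a median of 16.7. In iWAT adipocytes the values ran from 6.32 to 9.12 (median 8.30), and in BAT from 3.18 to 4.13 (median 3.97). The 3 ranges did not overlap. Srebf2 was 2.03-fold higher in eWAT than in iWAT adipocytes (log2 fold change of iWAT over eWAT -1.02, SE 0.10, edgeR adjusted p = 2.25e-06). Against BAT it was 1.38-fold higher in iWAT adipocytes (edgeR adjusted p = 1.36e-04) and 2.85-fold higher in eWAT adipocytes (edgeR adjusted p = 7.31e-10).

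Insig1, whose protein retains the SREBP complex in the endoplasmic reticulum, ran the other way between the white depots. Its row (mm9, chromosome 5, 28397903 to 28405204, plus strand, 5 exons) was the most abundant of the 7 in each tissue. BAT samples gave 32.8 to 51.2 RPKM (median 35.2), eWAT adipocytes 39.5 to 93.1 (median 67.9) and iWAT adipocytes 93.8 to 141 (median 112.5). The lowest iWAT sample stood just above the highest eWAT sample, and after TMM scaling the 2 depots overlapped. Insig1 was 1.72-fold higher in iWAT than in eWAT adipocytes (log2 fold change 0.79, SE 0.21, adjusted p = 0.0044 with edgeR) and 2.03-fold higher in iWAT adipocytes than in BAT (edgeR adjusted p = 5.82e-06). Between eWAT adipocytes and BAT the log2 fold change was 0.26 (95% confidence interval -0.15 to 0.67) and did not pass the test (edgeR adjusted p = 0.217), but without eWAT sample 3 it was 0.39 and passed (edgeR adjusted p = 0.0398). Within a sample, the ratio of Insig1 to Srebf2, which no scaling between samples can move, was 4.40 ± 1.75 (SD, n = 6) in eWAT adipocytes, 10.1 ± 1.49 (SD, n = 6) in BAT and 15.2 ± 4.18 (SD, n = 6) in iWAT adipocytes. The eWAT ratios, 2.17 to 6.38, lay below all iWAT and BAT ratios; this ratio was chosen after the values were seen and was not tested. A copy of the Insig1 transcript on chromosome 3 matches it at 97.9% over 2040 bases in the mm9 genome, and how reads shared with it were counted is not given in the sources used here.

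**Figure D1:**
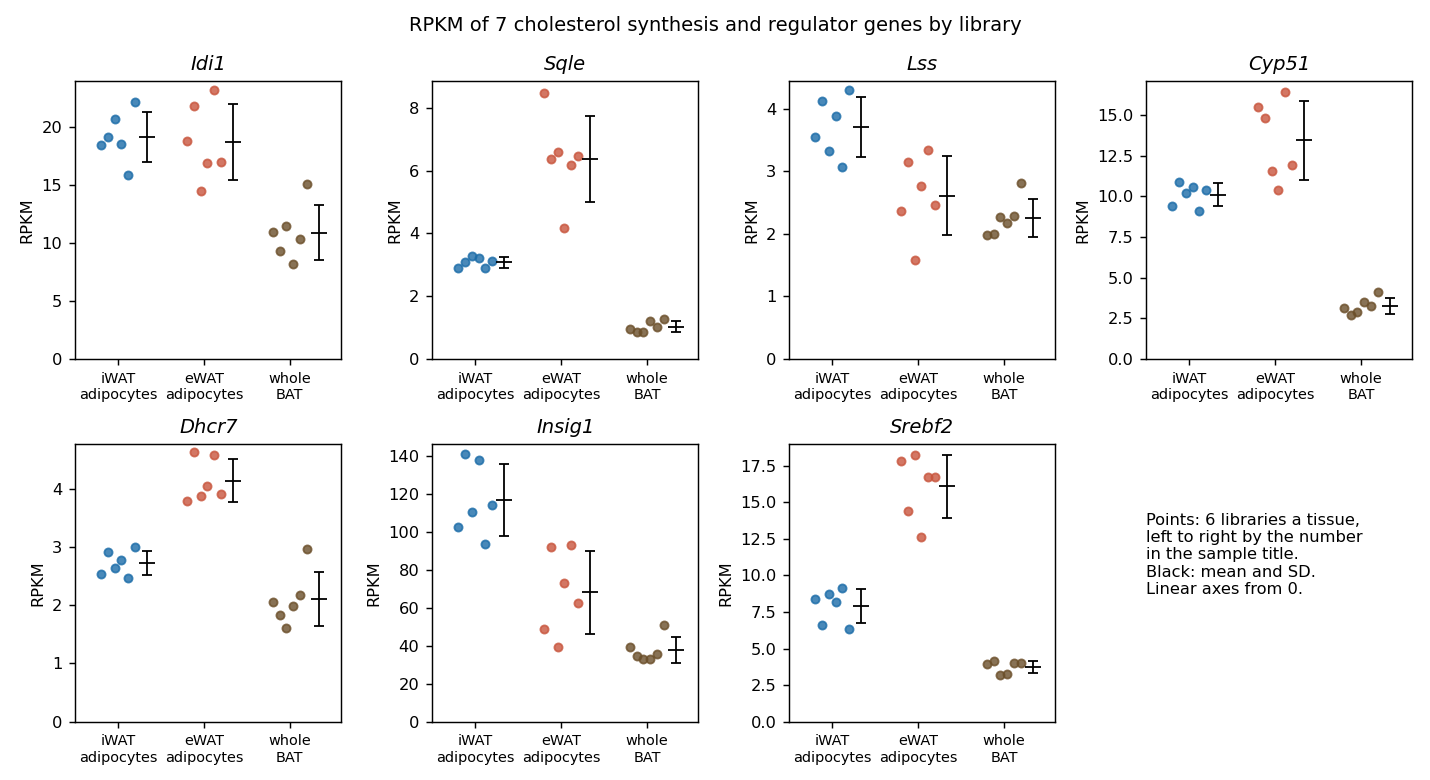
RPKM (y axes, linear from 0) of the 7 genes in each of 6 samples of iWAT adipocytes, eWAT adipocytes and whole BAT (x axes), with the mean and SD in black. Srebf2, Sqle and Dhcr7 stand highest in eWAT adipocytes, Insig1 stands highest in iWAT adipocytes, and Idi1 is level between both white depots at means of 19.1 and 18.7 RPKM.

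The RefSeq promoters (GRCm38.p6, the 250 bases before the start of transcription) of both regulators and of Cyp51, the enzyme nearest to the common pattern of the members, are shown because SREBP-2 acts on such sequences. Srebf2 is at chr15:82147019-82147268 on the plus strand, Insig1 at chr5:28071162-28071411 on the plus strand and Cyp51 at chr5:4104698-4104947 on the minus strand, and each is written 5′ to 3′ on the strand of its gene. Capitals mark matches on either strand to CACNCCA (inner letters of the sterol regulatory element), CCAAT (the NF-Y motif) and GGGCGG (the Sp1 motif).
Srebf2: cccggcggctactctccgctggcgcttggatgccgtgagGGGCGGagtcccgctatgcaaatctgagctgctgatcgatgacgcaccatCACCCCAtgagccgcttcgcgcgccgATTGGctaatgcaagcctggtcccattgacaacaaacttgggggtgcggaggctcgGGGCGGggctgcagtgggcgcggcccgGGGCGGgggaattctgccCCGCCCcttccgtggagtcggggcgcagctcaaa
Insig1: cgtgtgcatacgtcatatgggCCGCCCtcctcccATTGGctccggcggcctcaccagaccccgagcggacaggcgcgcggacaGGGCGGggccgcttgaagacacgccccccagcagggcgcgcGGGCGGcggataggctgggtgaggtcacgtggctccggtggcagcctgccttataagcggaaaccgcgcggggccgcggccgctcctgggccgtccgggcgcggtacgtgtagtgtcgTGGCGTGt
Cyp51: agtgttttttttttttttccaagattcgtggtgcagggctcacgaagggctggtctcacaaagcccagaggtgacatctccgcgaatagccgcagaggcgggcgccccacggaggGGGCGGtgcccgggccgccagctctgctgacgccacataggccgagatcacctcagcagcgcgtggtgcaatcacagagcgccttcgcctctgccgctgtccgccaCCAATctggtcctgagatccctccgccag
CACNCCA was found 161 bases before the Srebf2 start, and on the opposite strand 8 bases before the Insig1 start. The Cyp51 window holds no match to these letters, one CCAAT and one GGGCGG. The search for CACNCCA finds these letters alone. A window without a match, such as that of Cyp51, may still hold a sterol regulatory element of other letters. Sqle was not matched in the promoter table. Among the 7 members that were matched, Hmgcs1 included, CACNCCA was in 3 (Hmgcs1, Insig1 and Srebf2), against 17.4% of the 27025 genes in the table. CCAAT and GGGCGG were each in 7 of 7 members, against 37.5% and 35.4% of genes. Dhcr7 has 3 windows and was counted once. Srebf2 and Insig1, whose windows match the same 3 motifs, had opposite depot differences. The part of the motifs in these differences was not tested.

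The enzymes that lead to lanosterol did not move as one. Idi1 interconverts the 5-carbon isoprenoid units. On mm9 chromosome 13 (8884852 to 8891697, plus strand, 5 exons), it gave 8.20 to 15.1 RPKM in BAT (median 10.7), 14.5 to 23.2 in eWAT adipocytes (median 17.9) and 15.9 to 22.1 in iWAT adipocytes (median 18.8). The white depots overlapped almost fully. The log2 fold change of iWAT over eWAT was 0.043 (95% confidence interval -0.22 to 0.31, edgeR adjusted p = 0.767) and turned to -0.040 without TMM, to -0.011 without iWAT sample 16 and to -0.026 without eWAT sample 3. Against BAT it was 0.21 for iWAT (edgeR adjusted p = 0.156) and 0.19 for eWAT adipocytes (edgeR adjusted p = 0.214); both passed without BAT sample 18, at 0.32 (edgeR adjusted p = 0.0173) and 0.29 (edgeR adjusted p = 0.0427). Idi1 has a near copy on chromosome 2, with 99.3% identity over 2494 bases. The row of that copy held 44 to 160 reads per sample, against 551 to 2261 for Idi1. Near copies on chromosome 5 (96.1% over 1170 bases and 96.6% over 1300 bases) lie in no row. How reads shared with these copies were counted is not given, so the level of Idi1 is uncertain and the chromosome 2 reads do not bound this.

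Sqle encodes squalene epoxidase, the first oxygen-requiring step of sterol synthesis. The Sqle row (mm9, chromosome 15, 59146632 to 59162748, plus strand, 9 exons) gave 4.17 to 8.47 RPKM in eWAT adipocytes (median 6.42), 2.89 to 3.29 in iWAT adipocytes (median 3.10) and 0.847 to 1.26 in BAT (median 0.992). No range overlapped another, and the spread within iWAT was small, with an SD of 0.167. Sqle was 2.05-fold higher in eWAT than in iWAT adipocytes (log2 fold change of iWAT over eWAT -1.04, SE 0.13, edgeR adjusted p = 1.16e-05). It was 1.96-fold higher in iWAT adipocytes than in BAT (edgeR adjusted p = 3.81e-06) and 4.11-fold higher in eWAT adipocytes than in BAT (edgeR adjusted p = 1.92e-08), the largest change of the 7 genes in any comparison.

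Lss encodes lanosterol synthase, which closes the ring on the product of Sqle, yet its order of tissues differed. The Lss row (mm9, chromosome 10, 75994333 to 76027009, plus strand, 22 exons) gave 1.98 to 2.82 RPKM in BAT (median 2.22), 1.59 to 3.34 in eWAT adipocytes (median 2.61) and 3.07 to 4.31 in iWAT adipocytes (median 3.72). The ranges of the white depots overlapped. Lss was 1.43-fold higher in iWAT than in eWAT adipocytes (log2 fold change 0.52, SE 0.16, edgeR adjusted p = 0.0122). Between iWAT adipocytes and BAT the log2 fold change was 0.11 (95% confidence interval -0.15 to 0.36, edgeR adjusted p = 0.427). Against eWAT adipocytes it was higher in BAT by the test (log2 fold change of eWAT over BAT -0.39, SE 0.16, edgeR adjusted p = 0.0332), but the direction turned without TMM, to 0.53, and the call was lost without any one of eWAT samples 1, 3 and 16 or BAT samples 5, 16 and 18 (edgeR adjusted p 0.054 to 0.081). The ratio of Sqle to Lss within a sample was 0.456 ± 0.0605 (SD, n = 6) in BAT, 0.841 ± 0.105 (SD, n = 6) in iWAT adipocytes and 2.62 ± 1.04 (SD, n = 6) in eWAT adipocytes, and no tissue overlapped another; like the ratio above it was chosen after the values were seen and was not tested. A gene on the opposite strand, 4930483K19Rik, lies over Lss with 23 to 86 reads against 511 to 1456, and whether counting used strand is not given in the sources used here.

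The enzymes after lanosterol were both higher in eWAT than in iWAT adipocytes. Cyp51 removes a methyl group from lanosterol. The Cyp51 row (mm9, chromosome 5, 4080674 to 4104746, minus strand, 10 exons) gave 10.4 to 16.4 RPKM in eWAT adipocytes (median 13.4), 9.12 to 10.9 in iWAT adipocytes (median 10.3) and 2.72 to 4.14 in BAT (median 3.21). White depots overlapped a little, and both stood above every BAT sample. Cyp51 was 1.32-fold higher in eWAT than in iWAT adipocytes (log2 fold change of iWAT over eWAT -0.40, SE 0.11, edgeR adjusted p = 0.0070). It was 2.02-fold higher in iWAT adipocytes (edgeR adjusted p = 1.10e-06) and 2.71-fold higher in eWAT adipocytes (edgeR adjusted p = 1.73e-07) than in BAT.

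Dhcr7 carries out the last reduction to cholesterol. Dhcr7's row (mm9, chromosome 7, 151009050 to 151059839, plus strand, 11 exons) gave 3.79 to 4.62 RPKM in eWAT adipocytes (median 3.98), 2.47 to 2.9996 in iWAT adipocytes (median 2.70) and 1.62 to 2.96 in BAT (median 2.02). The white depots did not overlap, and the iWAT range fell partly inside that of BAT. Dhcr7 was 1.51-fold higher in eWAT than in iWAT adipocytes (log2 fold change of iWAT over eWAT -0.59, SE 0.08, adjusted p = 4.37e-05 with edgeR) and 1.30-fold higher in eWAT adipocytes than in BAT (edgeR adjusted p = 0.0097). Between iWAT adipocytes and BAT the log2 fold change was -0.24 (edgeR adjusted p = 0.107) with TMM and 0.62 without it, so the direction rests on the scaling.

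Over the 7 genes, 6 passed the test between the white depots, of which 4 (Sqle, Cyp51, Dhcr7 and Srebf2) were higher in eWAT and 2 (Lss and Insig1) in iWAT adipocytes. Among all 19623 genes tested, 68.6% passed, so a share of that size is not particular to these genes; 34.5% were higher in eWAT and 34.1% in iWAT adipocytes. Members had a median log2 fold change of -0.40, against 0.00 over all genes. RPKM did not overlap between the depots for 4 of the 7 genes, against 44.0% of all genes, and TMM-scaled RPKM did not overlap for 3, against 43.5%. The sequencing lanes cut across both depots: lane 1 held iWAT samples 1 and 3 and eWAT samples 2, 3, 4 and 5, and lane 2 held the others. Within lane 1 and lane 2, Sqle differed by -0.90 and -1.24 (log2, iWAT over eWAT), Srebf2 by -0.84 and -1.16 and Dhcr7 by -0.71 and -0.42, and each passed in both lanes. Insig1 differed by 0.53 and 1.17 and Lss by 0.35 and 0.72, and both passed in lane 2 alone. Cyp51 differed by -0.42 and -0.38 and passed in neither lane, while Idi1 differed by 0.05 and 0.13.

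Against BAT, 4 of 7 genes (Sqle, Cyp51, Insig1 and Srebf2) were higher in iWAT adipocytes and none was higher in BAT, beside 75.3% of 19745 genes that passed, 38.1% higher in iWAT adipocytes and 37.2% in BAT. RPKM did not overlap for 6 of 7 members, against 65.3% of genes, and TMM-scaled RPKM for 4, against 56.4%. The members' median log2 fold change was 0.46, against 0.01 over all genes. In the comparison of eWAT adipocytes with BAT, 5 of 7 passed, with Sqle, Cyp51, Dhcr7 and Srebf2 higher in eWAT adipocytes and Lss in BAT, beside 82.5% of 20076 genes (41.1% higher in eWAT adipocytes and 41.4% in BAT). RPKM did not overlap for 4 of 7 members, against 68.4% of genes, and TMM-scaled RPKM for 3, against 66.3%. The median was 0.38, against -0.02 over all genes. Both comparisons share the BAT samples, and both share a white depot with the first comparison, so their counts are not independent. BAT was sequenced on 2 lanes of its own, so lane and tissue cannot be told apart there. Without TMM, all 7 genes were higher in each white depot than in BAT, with medians of 1.32 and 1.30, against the all-gene medians of 0.87 and 0.89 given above.

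**Figure D2:**
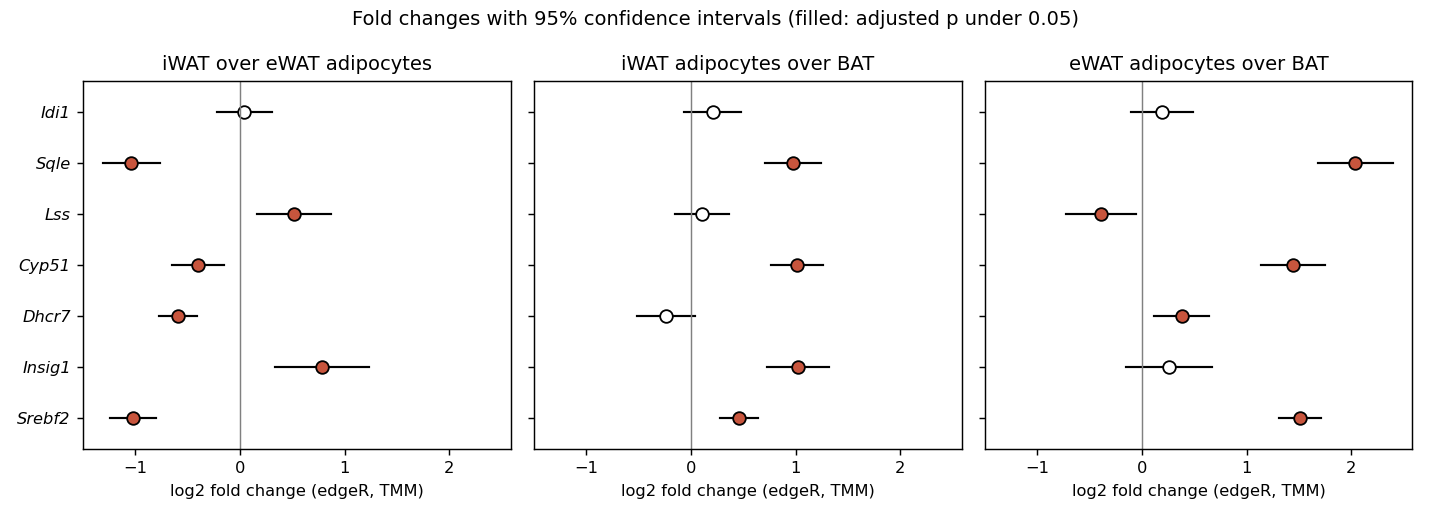
Log2 fold changes (x axes, edgeR with TMM) of the 7 genes in the 3 comparisons, with 95% confidence intervals as lines and genes that passed an adjusted p of 0.05 filled. Insig1 and Lss lie to the right of 0 between the white depots while Srebf2, Sqle, Dhcr7 and Cyp51 lie to the left, and against BAT the largest value is that of Sqle in eWAT adipocytes at 2.04.

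Per length of transcript, Insig1 and then Idi1 led in each tissue, and the order below them changed. In iWAT adipocytes, Cyp51, Srebf2, Lss, Sqle and Dhcr7 followed, and the ranges of Cyp51 and Srebf2, of Lss and Sqle and of Sqle and Dhcr7 overlapped. In eWAT adipocytes the order was Srebf2, Cyp51, Sqle, Dhcr7 and Lss, with overlap of Srebf2 with its neighbours on both sides and of Sqle with Dhcr7. BAT had Srebf2, Cyp51, Lss, Dhcr7 and Sqle, where each of the first 4 overlapped with the next of them and Sqle did not overlap with Dhcr7. Among genes with reads, Insig1 ranked 856 of 28271 in BAT, 743 of 28762 in eWAT adipocytes and 373 of 27926 in iWAT adipocytes. These levels depend on row lengths, which exceed the exonic length of the GENCODE gene 1.72-fold for Dhcr7, 1.40-fold for Srebf2 and 1.25-fold for Sqle, so the RPKM of these genes may be understated against the other members.

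Samples of one tissue also differed in ways that several members shared. By RPKM, BAT sample 18 was highest for 6 of the 7 genes, all but Srebf2, at 123% to 141% of the tissue mean. Which gene is the exception depends on scale. After TMM scaling, sample 18 was highest for Srebf2 too (5.45, next 5.21), and for Sqle it stood below sample 16 (1.71 against 1.89). The adipocyte marker sum of sample 18 was 96.5% and its macrophage sum 117% of the mean. Sample 5 of iWAT was lowest for Idi1, Lss, Cyp51, Dhcr7 and Insig1 but highest for Srebf2 by RPKM. After TMM scaling it was lowest for Sqle too (2.39, next 2.44), and sample 3 was highest for Srebf2 (7.86 against 7.54 in sample 5). The adipocyte marker sum of iWAT sample 5 was the lowest of the 6, at 81.8% of the tissue mean. The same sample had the highest endothelial sum (159.5%), the lowest skeletal muscle sum (36.6%) and a macrophage sum of 119.6%. In eWAT, samples 1 and 3 had the lowest Insig1 (48.8 and 39.5 RPKM) and Lss (2.37 and 1.59 RPKM) and the highest Srebf2 (17.8 and 18.2 RPKM). The same samples had the lowest adipocyte marker sums, at 65.2% and 47.8% of the tissue mean, and the highest macrophage marker sums, at 118% and 124%. The part of the cell mixture in these values was not tested.

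**Figure D3:**
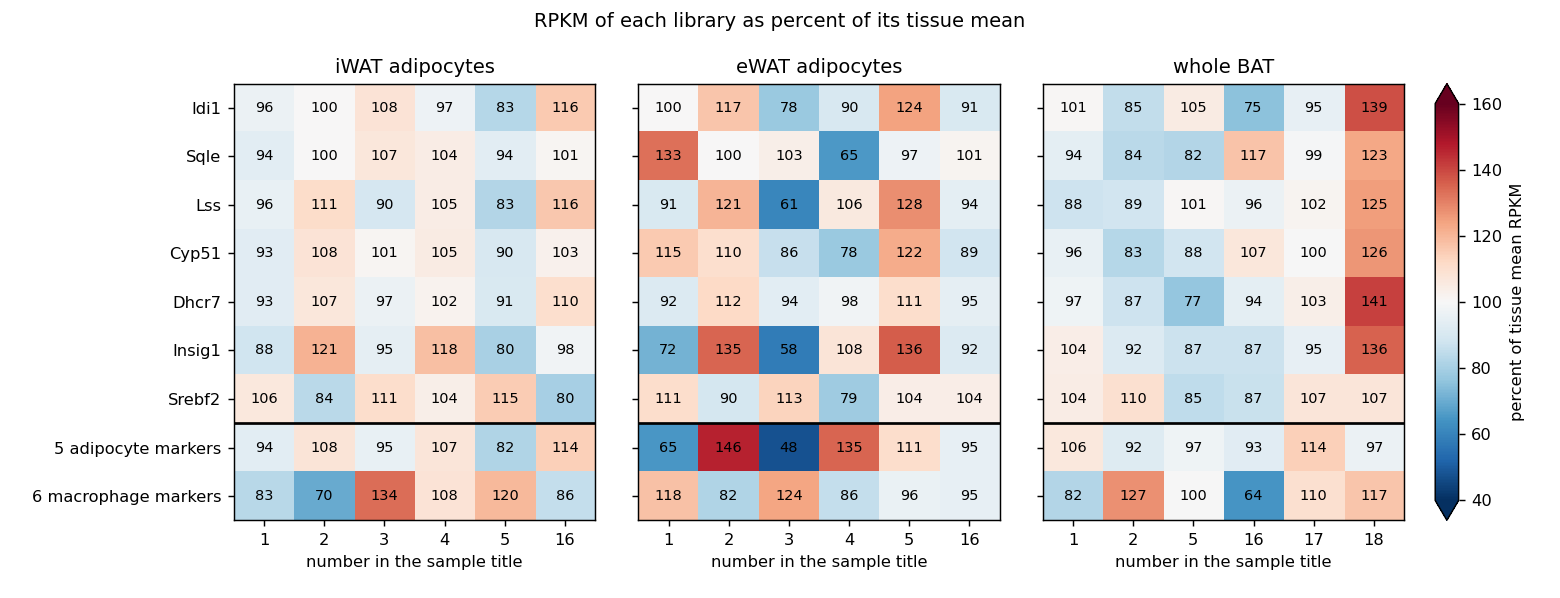
RPKM of each sample as percent of its tissue mean (colour and printed number) for the 7 genes and for the summed adipocyte and macrophage markers (rows), by the number in the sample title (columns). In eWAT samples 1 and 3, low Insig1 and Lss stand over low adipocyte and high macrophage sums. BAT sample 18 is highest for 6 of 7 genes by RPKM without TMM scaling.

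The 5 enzymes summed to 19.6 ± 3.47 RPKM (SD, n = 6) in BAT, 38.7 ± 3.27 RPKM (SD, n = 6) in iWAT adipocytes and 45.2 ± 6.73 RPKM (SD, n = 6) in eWAT adipocytes. These sums are without TMM scaling, where BAT stood lower over all genes. Idi1, whose level is uncertain, was the largest part of each, at means of 10.9, 19.1 and 18.7 RPKM in the same order. After TMM scaling its means were 14.8, 16.9 and 16.5. Across the 6 samples of a tissue, Insig1 rose with the summed enzymes in BAT at Pearson's r = 0.917 (exact permutation p = 0.0431, adjusted over 6 relations 0.229) and Spearman's rho = 0.714 (exact permutation p = 0.136, adjusted 0.204). The relation rests on few samples, since leaving out the 2 samples with the most distant enzyme sums gave r = 0.519. In iWAT adipocytes r was 0.605 (rho 0.714) and in eWAT adipocytes 0.572 (rho 0.771), with adjusted exact permutation p of 0.354 for both values of r and 0.204 for both of rho. For Srebf2, r was -0.758 in iWAT adipocytes (rho -0.829), 0.166 in eWAT adipocytes (rho -0.143) and 0.283 in BAT (rho 0.0857), with adjusted exact permutation p of 0.229, 0.731 and 0.731 for r and 0.204, 0.919 and 0.919 for rho. None of the 6 relations passed after adjustment. On TMM-scaled RPKM, the relation of Insig1 in BAT passed by r (0.920, adjusted exact permutation p = 0.0417) but not by rho (0.943, adjusted exact permutation p = 0.1), and r was 0.182 without the 2 samples. No lane held more than 4 samples of a tissue, fewer than the 6 set as the least for a correlation, and none was computed within a lane.

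With tissue means removed, the members' mean profile over the 18 samples was followed most closely by Cyp51 (r = 0.908), Dhcr7 (0.844) and Idi1 (0.827), then Insig1 (0.716), Lss (0.712) and Sqle (0.549), each of which is part of that mean. Srebf2 stood apart at 0.105. Between single members, r was highest for Insig1 with Lss (0.878) and lowest for Srebf2 with Lss (-0.492). Of 14150 other genes, those most alike included Fdps, the farnesyl diphosphate synthase (0.930), ENSMUSG00000090610 (0.919) and Mvd, which makes isopentenyl diphosphate (0.848). These points share libraries, depth and scaling and are a description. ENSMUSG00000090610 matches the Fdps transcript at 98.8% over 1160 bases and held 331 to 1165 reads against 131 to 523 on Fdps itself, so reads of these rows may be those of either.

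Other genes of the pathway numbered 26, of which 25 had enough reads for the test. Between the white depots, 19 of 25 passed, 11 higher in eWAT and 8 in iWAT adipocytes, with a median log2 fold change of -0.06, beside 68.6% of all genes (34.5% and 34.1%) and a median of 0.00. Among the largest were those of Fdft1, squalene synthase (-1.32), Npc1, which exports cholesterol from lysosomes (-1.28), and the late desaturase Sc5d (1.03). Fdft1 overlaps Ctsb, a cathepsin gene on the opposite strand with 14342 to 320767 reads per sample, so its counts are uncertain. Npc1 overlaps 3110002H16Rik on the opposite strand over 2324 bases, with 497 to 1447 reads against 818 to 7466 for Npc1, so its counts are uncertain too. By step, 3 genes up to lanosterol were higher in each depot and 1 did not pass, 2 genes after lanosterol were higher in each and 4 did not pass, and of the sensing and uptake genes 6 were higher in eWAT and 3 in iWAT adipocytes.

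In iWAT adipocytes against BAT, 19 of 25 of these genes passed, 16 higher in iWAT adipocytes and 3 in BAT (median 0.60), beside 75.3% of all genes (38.1% and 37.2%, median 0.01). Acat2, which joins acetyl-CoA units at the head of the pathway, was higher in BAT (log2 fold change -1.50), and the demethylation enzymes Sc4mol (1.32) and Hsd17b7 (1.27), and Mylip, a ubiquitin ligase (1.23), were higher in iWAT adipocytes. In eWAT adipocytes against BAT, 20 of 25 passed, 14 higher in eWAT adipocytes and 6 in BAT (median 0.79), beside 82.5% of all genes (41.1% and 41.4%, median -0.02). Sc4mol was higher in eWAT adipocytes (2.36) and Acat2 in BAT (-2.31). Without TMM, 24 of 25 were higher in iWAT adipocytes than in BAT.

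**Figure D4:**
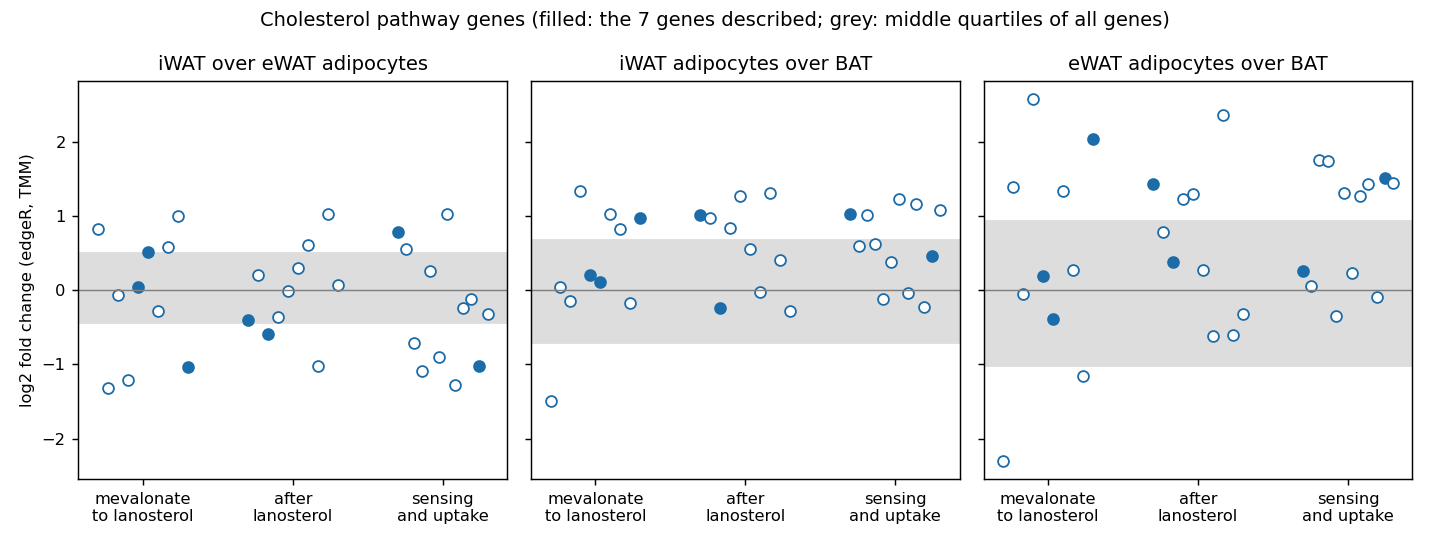
Log2 fold changes (y axis, edgeR with TMM) of the members (filled) and the 25 other tested pathway genes (open) by step of the pathway (x axes) in the 3 comparisons, over the middle quartiles of all genes in grey. Members and other genes lie on both sides of 0 between the white depots, from -1.32 to 1.03, and mostly above 0 against BAT, where Acat2 is lowest at -1.50 and -2.31.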

How the data were processed

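Libraries were made by the authors with a NEBNext Ultra kit from RNA of adipocytes or whole BAT. The submitters' processing notes list cutadapt 1.16, HISAT2 2.1.0 and the mm9 build; the counting program, its annotation and the handling of reads with several matches are not given in the sources used here. The deposited files give for each of 53445 rows a whole-number read count and the RPKM the authors derived from it. Where a symbol has several rows (1220 symbols), the one highest in mean RPKM was used.

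Counts were tested with edgeR 4.0.16 (glmQLFit, glmQLFTest, TMM, two-sided) in R 4.3.3, each comparison on its own 12 samples, with genes kept at a mean count of 10 or more. Mean TMM factors were 1.21, 1.27 and 0.658 in iWAT, eWAT and BAT. Benjamini-Hochberg adjustment ran over all genes tested, with a threshold of 0.05. The study's methods name no test for these data. Correlations were tested by exact permutation on log2 RPKM. Likeness used log2(RPKM + 0.1) for genes with a mean of at least 1 RPKM. Near copies were sought with blastn 2.17.0 in NCBIM37 (mm9; 90% identity or more over at least 200 bases), and promoters were read from a RefSeq table. The edgeR step was tested on simulated data.

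Alternatives were DESeq2 1.42.0, no scaling, no filter, the title number as a replicate block, all 18 samples in 1 fit, summed rows, limma 3.58.1 on log2(RPKM + 0.1) or log2(RPKM + 1), lane, a log2 fold change of at least 1 and leaving out each sample. Fits within lanes were added after the data were seen. Named genes are the members, in each comparison the 5 pathway genes that changed most among those that passed, the markers and the 5 genes most alike. Members and lists were chosen with earlier results of these data known. The enzyme sum was planned over 6 enzymes and holds 5, without Hmgcs1. Some genes that this rule reaches are not reported here by name.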

Additional observations from a re-analysis of the deposited data

Results flagged for a closer look

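BAT sample 18 stood apart from the other 5 BAT samples for 2 genes by Dixon's test of the gap to the nearest sample. Its Insig1 was 51.2 RPKM, against 32.8 to 39.2 in the others, and its Lss was 2.82 RPKM, against 1.98 to 2.29. The flags rest on RPKM without TMM scaling. After TMM scaling, its Insig1 was 69.2 against 43.8 to 51.8, and its Lss 3.82 against 2.53 to 3.42, so Lss stood less apart. These are 2 of 21 gene and tissue groups tested, and chance flags about 1 in 20. Without this sample, the log2 fold change of Insig1 in iWAT adipocytes over BAT was 1.12, against 1.02 with it. Lss in eWAT adipocytes over BAT was -0.32 and lost its call, and Idi1 passed against BAT in both iWAT (0.32) and eWAT adipocytes (0.29).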

How the results depend on the processing

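The direction of the members between iWAT and eWAT adipocytes depended on processing for Idi1 alone, which passed nowhere and turned to -0.040 without scaling, -0.011 without iWAT sample 16 and -0.026 without eWAT sample 3 (-0.026 to 0.117 over each sample left out). The direction against BAT turned for Dhcr7 in iWAT adipocytes (0.62 without scaling, 0.38 and 0.27 with limma at pseudocounts of 0.1 and 1) and for Lss in eWAT adipocytes (0.53, 0.17 and 0.13), where no step removes the shift of all genes. Members that passed in iWAT adipocytes over BAT numbered 7 without scaling and with limma at both pseudocounts. Without scaling, 81.8% of the calls over all genes were higher in iWAT adipocytes than in BAT, against 50.6% with TMM, and 76.1% in eWAT adipocytes, against 49.8%; with limma these shares were 74.3% and 67.6%. With a log2 fold change of at least 1, 2, 2 and 3 members passed (iWAT over eWAT, iWAT over BAT, eWAT over BAT), with 8 and 9 other pathway genes in the first and second and 4892, 7363 and 9830 genes in all. Lane 1 alone gave 3 members, 10 other pathway genes and 7300 genes between the white depots. Leaving out a sample gave 6 to 6, 4 to 5 and 4 to 5 members, 17 to 20, 18 to 19 and 19 to 20 other pathway genes, and 12667 to 13562, 14434 to 14833 and 16270 to 16552 genes. Without BAT sample 2 or 5, Dhcr7 passed as higher in BAT than in iWAT adipocytes (edgeR adjusted p = 0.0491 and 0.0469). The log2 fold change of iWAT over BAT was then -0.30 in both fits. Samples with the same number did not deviate together (mean r 0.00518 over 6 pairs of white depot samples, from -0.27 to 0.49). Of 12 samples, 2 were closest to their own number. Tissues of a single mouse need not deviate together, so this cannot decide whether the number stands for a mouse. With the number as a replicate block, 6, 4 and 5 members passed and 12836, 12555 and 15148 genes in all. In that fit, Lss in eWAT adipocytes over BAT lost its call (-0.20, edgeR adjusted p = 0.214) and Idi1 gained a call (0.41, edgeR adjusted p = 0.0112). On TMM-scaled RPKM, r of Insig1 with the enzymes in BAT was 0.920 (adjusted exact permutation p = 0.0417), but 0.182 without the 2 samples most distant in enzyme sum, and rho did not pass (adjusted exact permutation p = 0.1). Over all refits of member fold changes, 401 kept direction and side of the threshold, 19 gained a call, 12 lost one and 9 turned. The cause of these shifts was not tested.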
